A study of Homo sapiens with 12 samples.

Results

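Solute carriers, the SLC families, were described in Huh7 cells, a human hepatoma line, in which A1CF was induced with doxycycline. The members were the rows of the authors' 2 tables of significant genes with a symbol of SLC followed by a digit, SLC27A2 and SLC7A11 left out, which gave 64 genes among 1939 distinct gene entries. A table was held for each clone: 60 SLC genes were in that of the G398S clone, 5 in that of the wild-type (WT) clone, and SLC6A14 was in both. A1CF is an RNA-binding cofactor of the enzyme that edits apolipoprotein B mRNA.

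Per the labels, the G398S clone with doxycycline was set against the same clone without it, and the WT clone with doxycycline against the WT clone without it, with 3 libraries in each of the 4 groups. Each construct was represented by 1 clone, and no group had doxycycline without a construct, so an effect of doxycycline itself cannot be told apart from that of A1CF. A1CF stood at 80.9 FPKM with doxycycline and 26.3 FPKM without in the G398S clone, and at 33.2 FPKM and 19.5 FPKM in the WT clone. FPKM divides the fragments of a gene by its transcript length and by library size, so levels of different genes can be compared. Every FPKM given is the authors' single value for a group, with no spread between libraries, and depth is unknown because the tables hold no counts. A gene is said to have risen or fallen where the authors' q-value, a p-value adjusted for the false discovery rate, was at or under 0.05.

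Solute carriers are membrane proteins that move sugars, amino acids, ions, metals, vitamins and metabolites across the plasma membrane, the mitochondrial inner membrane and the membranes of vesicles and lysosomes. Families are numbered by sequence relation, and members of a family mostly, though not always, carry related solutes. In hepatocytes they take up nutrients and drugs from blood, export bile acids and iron, and link cytosolic with mitochondrial metabolism.

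In the G398S clone 26 SLC genes rose and 34 fell with doxycycline. Solute groups were assigned by family number, so a group can hold a gene with another solute. All 4 facilitative glucose transporter genes in the table fell. So did 11 of 16 amino acid carriers and 5 of 6 ion and pH carriers. By contrast 5 of 8 mitochondrial carriers and 4 of 6 metal carriers rose. Of all 1863 rows for this clone 53.7% fell. Only 3 of the 9 families with 3 or more members moved in 1 direction. The glucose transporter genes SLC2A2 and SLC2A3 stayed under 1 FPKM in both groups. The ion and pH falls include a row that SLC12A9 shares with TRIP6. The largest changes among genes with at least 1 FPKM in a group were a 2.19-fold rise of SLC51B, a subunit of the bile acid exporter, and a 2.22-fold fall of SLC4A11, a member of the bicarbonate transporter family. With 1 FPKM added the largest fall among the 60 genes of the G398S clone was instead that of SLC39A14, with a log2 fold change of -0.77. The deposited hg19 loci of the SLC51B and SLC4A11 rows are chr15:65336307-65360450 and chr20:3207968-3220198. A deposited locus can take in more than 1 gene, as does that of the row shared by MUC15 and SLC5A12, with 633.9 kb. In the GENCODE annotation SLC51B overlaps RASL12, so reads may be shared. In the WT clone SLC25A18, SLC7A1 and SLC20A1 rose and SLC16A3 and SLC6A14 fell.

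For the G398S clone the balance of rises and falls lay close to that of its whole table. Rises made up 43.3% of the SLC genes in the G398S table, against 46.3% of its 1863 rows, of which 53.7% fell. The 60 genes were 15.6% of 384 protein-coding SLC genes in the RefSeq table, set beside the 12.4% of 17072 tested genes that the authors' q-values imply were called. These shares are not on 1 footing: not every annotated SLC gene need have been tested, and the 1863 rows analysed here were 10.9% of the tested genes. In the WT clone the 5 genes were 1.30% of the same 384, beside 1.14% of 15109 tested genes that were called. The 142 rows analysed of that table were 0.94% of the tested genes. Of these 142 rows 39.4% rose and 60.6% fell. An SLC gene absent from the tables was not analysed here. Set against the median of all G398S rows, a log2 fold change of -0.32, SLC25A6 and SLC12A9 turn from falls to rises of 0.021 and 0.0068, and the split becomes 28 higher and 32 lower. The 60 genes include 2 rows that carry the symbol of another gene as well.

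The median absolute log2 fold change of the 60 genes was 0.60, against 0.49 over all rows of the G398S table, and 29 of them, or 48.3%, changed by less than 1.5-fold, against 62.3% of all rows. A change of 2-fold or more (1 on the log2 scale) was reached by 6 genes, or 10%, against 12.6% of all rows. Of these 6, SLC7A4 and SLC51B were higher and SLC1A7, SLC2A3, SLC4A11 and SLC25A45 lower, whereas the rows of the whole table past that size divided into 164 higher and 70 lower. Among the 4 lower genes SLC4A11 alone reached 1 FPKM in either group. The median of the SLC log2 fold changes was -0.33 in the G398S clone, against -0.32 over all rows. In the WT clone it was 0.64, the value of SLC20A1 alone, against -0.66. Only called rows were held, and the smallest absolute log2 fold change was 0.286 for G398S and 0.492 for WT. Both G398S sets held somewhat more falls than rises, so each median had to be among the smaller called falls. The closeness of -0.33 and -0.32 therefore says little about the SLC genes. For WT the sign of each median followed from the commoner direction, with only 3 rises and 2 falls among the SLC genes. The opposite signs of 0.64 and -0.66 thus say little too. Of the 5 WT genes 2 changed by 2-fold or more, against 35.9% of the rows of that table.

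**Figure D1:**
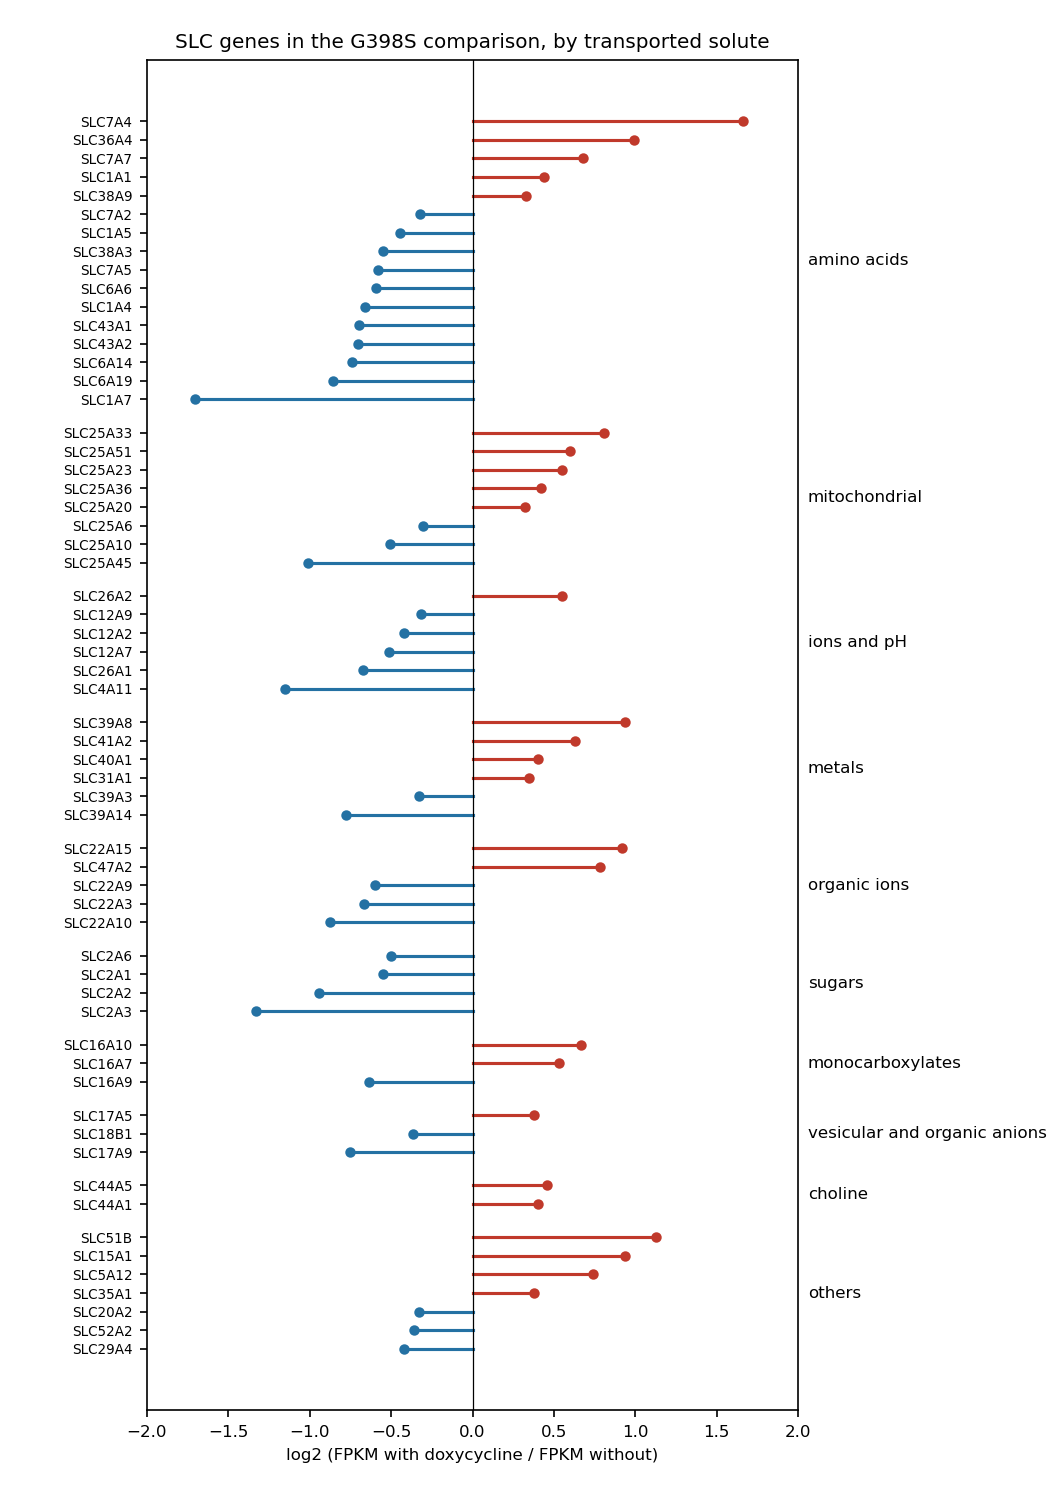
Each line is 1 of the 60 SLC genes of the G398S comparison, grouped by the solute assigned to its family number. Its end marks the log2 ratio of FPKM with over without doxycycline (no replicate error is available). Red lines point to the 26 rises and blue lines to the 34 falls, and the 4 sugar carriers all point to the left.

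Levels varied widely among the members. Without doxycycline the 60 genes ran between 0.295 FPKM for SLC7A4 and 129 FPKM for SLC39A14. With it they ran between 0.186 FPKM for SLC1A7 and 130.2 FPKM for SLC25A33. Their median level was 9.37 FPKM with doxycycline and 9.80 FPKM without. A level of 10 FPKM in a group was reached by 31 genes, or 51.7%, against 52.8% of all rows of the G398S table. Under 1 FPKM in both groups stayed 8 genes, or 13.3%, against 6.12% of all rows. The 8 are SLC7A4, SLC15A1, SLC47A2, SLC6A14, SLC2A2, SLC2A3, SLC25A45 and SLC1A7, and their ratios rest on very low values.

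**Figure D2:**
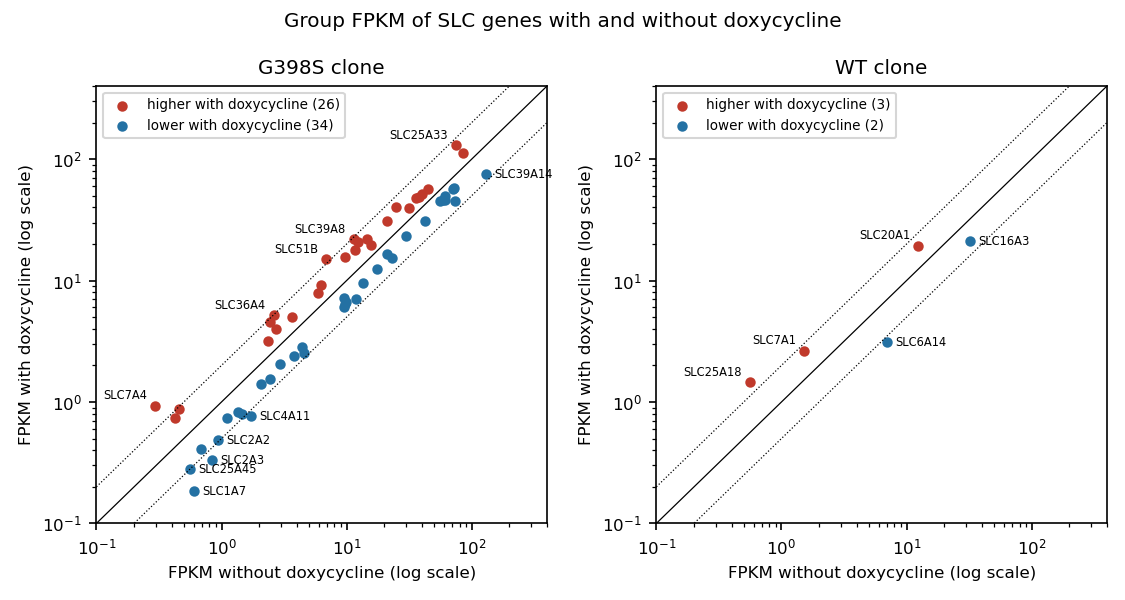
FPKM of each SLC gene with doxycycline (vertical, log scale) against without (horizontal, log scale), with the G398S clone on the left and the WT clone on the right. The solid line marks equal values and the dotted lines changes of 2-fold. Most G398S points lie between the dotted lines, and the points beyond them are mostly at low FPKM.

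The facilitative sugar transporters, which let glucose or fructose move down its gradient, fell without exception among the 4 in the G398S table. SLC2A1, the widespread glucose transporter GLUT1, had 6.72 FPKM with doxycycline and 9.83 FPKM without, a 1.46-fold fall. Its deposited hg19 locus is chr1:43391046-43449029. SLC2A6, a relative found on lysosomes, had 9.55 FPKM with doxycycline and 13.5 FPKM without, a 1.41-fold fall. SLC2A2, the glucose transporter GLUT2 of hepatocytes and beta cells, was barely expressed, with 0.483 FPKM with doxycycline and 0.931 FPKM without. SLC2A3, the high-affinity GLUT3, had 0.334 FPKM with doxycycline and 0.840 FPKM without, the largest ratio of the family at 2.52-fold. Each had q = 0.00104, the smallest q in the authors' deposited table, which 735 of its 1863 rows and 28 of the 60 SLC genes share. After addition of 1 FPKM to each group value, SLC2A1, SLC2A2, SLC2A3 and SLC2A6 had log2 fold changes of -0.49, -0.38, -0.46 and -0.46, so the larger ratios of SLC2A2 and SLC2A3 came with their low levels. SLC2A3 has a close paralog, SLC2A14, with which reads may be shared.

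All 4 glucose transporter genes in the G398S table fell, as did its 3 SLC6 genes and its 3 SLC12 rows. For that fall the promoters of 3 of the 4 glucose carriers, all but SLC2A3, are printed. They run from 250 bases before to 50 bases after the annotated start, are read 5′ to 3′ on the minus strand, and come from RefSeq on GRCh38.p14, a newer build than the hg19 of the deposited coordinates. A promoter was held for 52 of the 64 genes. That of SLC2A1 lies at chr1:42958819-42959118, that of SLC2A2 at chr3:171026671-171026970 and that of SLC2A6 at chr9:133479050-133479349. Capitals mark every match, on either strand, to 4 motifs. These were the GC box, spelled GGGCGG, the box of TATA type, spelled TATAAA, the core of hypoxia elements and of some E-boxes, spelled ACGTG, and the core of the amino acid response element, spelled TGATGNAA.
SLC2A1: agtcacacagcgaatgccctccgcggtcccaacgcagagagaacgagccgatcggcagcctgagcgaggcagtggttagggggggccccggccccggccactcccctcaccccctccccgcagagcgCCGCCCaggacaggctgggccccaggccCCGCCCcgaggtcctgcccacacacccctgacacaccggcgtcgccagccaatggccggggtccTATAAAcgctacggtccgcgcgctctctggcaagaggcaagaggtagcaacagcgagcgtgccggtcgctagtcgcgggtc
SLC2A2: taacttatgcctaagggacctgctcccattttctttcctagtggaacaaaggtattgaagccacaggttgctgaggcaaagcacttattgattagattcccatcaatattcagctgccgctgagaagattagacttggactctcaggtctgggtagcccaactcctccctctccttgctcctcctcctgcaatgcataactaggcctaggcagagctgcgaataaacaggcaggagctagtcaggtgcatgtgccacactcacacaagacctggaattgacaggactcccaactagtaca
SLC2A6: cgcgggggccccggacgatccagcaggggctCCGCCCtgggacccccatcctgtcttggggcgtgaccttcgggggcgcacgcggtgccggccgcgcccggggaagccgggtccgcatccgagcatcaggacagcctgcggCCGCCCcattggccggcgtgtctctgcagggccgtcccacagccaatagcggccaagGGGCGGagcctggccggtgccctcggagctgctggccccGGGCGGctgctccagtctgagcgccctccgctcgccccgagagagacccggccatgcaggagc

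The SLC2A6 window held 4 GC boxes, and that of SLC2A1 held 2 GC boxes and 1 TATA box. No searched motif was found in the window of SLC2A2. Over 27305 promoters, the first listed for each gene, the GC box was found in 44.6%, the TATA box in 12.0%, the hypoxia core in 21.6% and the amino acid response core in 3.67%.

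Families of amino acid carriers formed the largest group, with 16 genes in the G398S table, 5 higher and 11 lower, and a median log2 fold change of -0.57. SLC16A10, which carries aromatic amino acids and rose, was counted with the monocarboxylate family SLC16 and is not among them. Among the falls, the neutral amino acid exchanger SLC1A5, which carries glutamine, had 31.2 FPKM with doxycycline and 42.5 FPKM without. Its relative SLC1A4, which carries alanine and serine, had 2.41 FPKM with doxycycline and 3.80 FPKM without. SLC43A1, a facilitative transporter of large neutral amino acids, fell 1.62-fold, with 45.5 FPKM with doxycycline and 73.9 FPKM without. Its relative SLC43A2 had 0.827 FPKM with doxycycline and 1.35 FPKM without. SLC7A5, the light subunit of the leucine exchanger LAT1, was low, at 0.734 FPKM with doxycycline and 1.10 FPKM without, and has pseudogene copies that may share its reads. Both SLC43 genes and 3 of the 4 SLC1 genes in the table fell.

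All 3 genes of the sodium- and chloride-dependent SLC6 family in the G398S table fell. SLC6A19, which absorbs neutral amino acids in gut and kidney, had 2.51 FPKM with doxycycline and 4.56 FPKM without, a 1.81-fold fall. The taurine transporter SLC6A6 had 6.39 FPKM with doxycycline and 9.65 FPKM without. The glutamine transporter SLC38A3 fell 1.47-fold and the arginine transporter SLC7A2 fell 1.25-fold, the last with 56.9 FPKM with doxycycline and 71.1 FPKM without. SLC1A7, a glutamate transporter best known from the retina, had the largest ratio of all falls, 3.26-fold, at 0.186 FPKM with doxycycline and 0.606 FPKM without. With 1 FPKM added its log2 fold change shrank to -0.44.

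Of the 5 genes in this group that rose, SLC7A7 was the most abundant, with 40.0 FPKM with doxycycline and 25.0 FPKM without. It is the light subunit of an exchanger that releases cationic amino acids. SLC36A4, a high-affinity carrier of proline and tryptophan, had 5.21 FPKM with doxycycline and 2.63 FPKM without, a 1.99-fold rise. SLC38A9, a lysosomal arginine sensor upstream of mTORC1, had 19.6 FPKM with doxycycline and 15.7 FPKM without, and the glutamate transporter SLC1A1 rose 1.35-fold. SLC7A4, a family member with no settled substrate, had 0.935 FPKM with doxycycline and 0.295 FPKM without, and its log2 fold change of 1.66 became 0.58 with 1 FPKM added. The 16 genes had q-values up to 0.0387 in the authors' deposited table.

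Mitochondrial carriers of the SLC25 family numbered 8, of which 5 rose. SLC25A33, which brings pyrimidine nucleotides into mitochondria, was the most abundant of them, with 130.2 FPKM with doxycycline and 74.5 FPKM without, a 1.75-fold rise. SLC25A36, another pyrimidine nucleotide carrier, had 7.93 FPKM with doxycycline and 5.91 FPKM without. SLC25A51, the mitochondrial NAD+ carrier, rose 1.51-fold, with 21.9 FPKM with doxycycline and 14.4 FPKM without. The calcium-regulated ATP-magnesium carrier SLC25A23 rose 1.46-fold and SLC25A20, which exchanges acylcarnitines for carnitine in fatty acid oxidation, rose 1.25-fold. The pyrimidine nucleotide and NAD+ carriers stood among the rises, a grouping chosen after their values were seen.

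The dicarboxylate carrier SLC25A10 fell, with 12.4 FPKM with doxycycline and 17.5 FPKM without. SLC25A6, an ADP/ATP carrier, had 45.1 FPKM with doxycycline and 55.6 FPKM without. It lies in a region shared by chromosomes X and Y and has close paralogs, so its level is uncertain. SLC25A45 stayed under 0.6 FPKM in both groups, with 0.279 FPKM with doxycycline and 0.561 FPKM without. The family had q-values up to 0.0434 in the authors' deposited table.

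Metal carriers were among the better expressed, with all 6 at 10 FPKM or more in a group. SLC39A8 and SLC39A14, importers of zinc and manganese of which the second also carries iron in liver, moved in opposite directions. SLC39A8 had 22.0 FPKM with doxycycline and 11.5 FPKM without, a 1.91-fold rise. SLC39A14 had 75.6 FPKM with doxycycline and 129 FPKM without, a 1.71-fold fall, and the zinc importer SLC39A3 fell 1.26-fold. SLC40A1, ferroportin, the iron exporter of cells, had 113 FPKM with doxycycline and 85.7 FPKM without. The copper importer SLC31A1 rose 1.27-fold, with 56.6 FPKM with doxycycline and 44.5 FPKM without, and the magnesium transporter SLC41A2 rose 1.55-fold. In the authors' deposited table q was 0.00104 for SLC39A8, SLC39A14 and SLC41A2 and at most 0.0479 for the other metal carriers.

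Ion and pH carriers fell in 5 of 6 cases. SLC12A2, the sodium-potassium-chloride cotransporter NKCC1, had 45.8 FPKM with doxycycline and 61.3 FPKM without. The potassium-chloride cotransporter SLC12A7 had 2.05 FPKM with doxycycline and 2.92 FPKM without. SLC4A11 had 0.770 FPKM with doxycycline and 1.71 FPKM without, and its log2 fold change of -1.15 became -0.61 with 1 FPKM added. The sulphate transporters of the SLC26 family diverged, as SLC26A2 rose to 9.20 FPKM with doxycycline, against 6.29 FPKM without, and SLC26A1 fell to 6.03 FPKM, against 9.60 FPKM without. SLC12A9 shares its row with TRIP6, at 49.3 FPKM with doxycycline and 61.3 FPKM without, so the value cannot be assigned to SLC12A9.

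**Figure D3:**
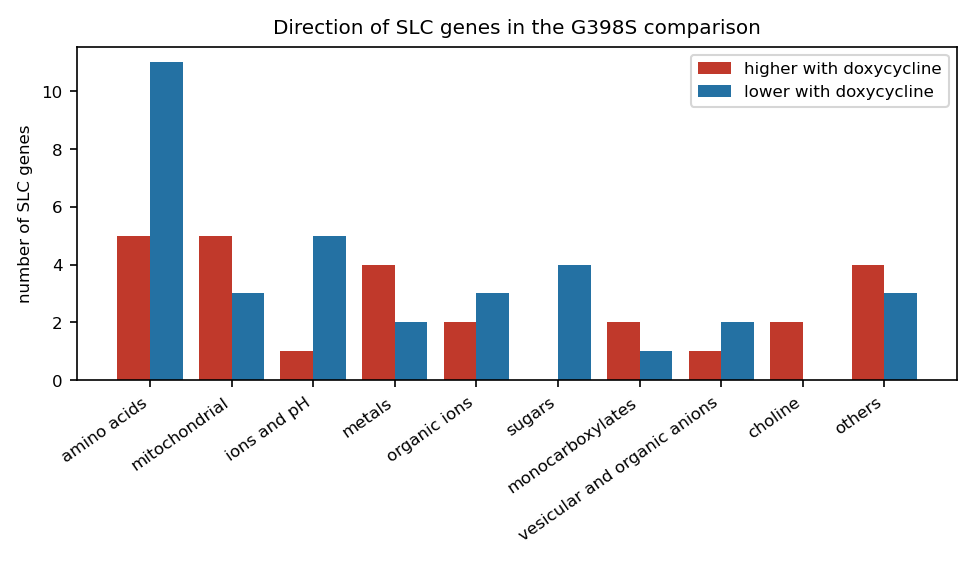
Bars count the SLC genes of the G398S comparison that were higher (red) or lower (blue) with doxycycline in each group of solutes, assigned by family number. Amino acid carriers have 5 rises and 11 falls, sugar carriers 0 rises and 4 falls, and metal carriers 4 rises and 2 falls.

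Carriers of organic ions divided into 2 rises and 3 falls. SLC22A15, a carrier of zwitterions, had 4.58 FPKM with doxycycline and 2.42 FPKM without, a 1.89-fold rise, and SLC47A2, a proton-coupled exporter of organic cations, stayed under 1 FPKM. SLC22A9, a liver organic anion transporter, had 15.2 FPKM with doxycycline and 23.1 FPKM without. SLC22A10, a family member with no settled substrate, had 0.789 FPKM with doxycycline and 1.45 FPKM without, and SLC22A3, an organic cation transporter, fell 1.59-fold.

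In the SLC16 family SLC16A7, a high-affinity pyruvate and lactate transporter, had 30.6 FPKM with doxycycline and 21.2 FPKM without. SLC16A10, which carries aromatic amino acids, had 15.5 FPKM with doxycycline and 9.78 FPKM without. SLC16A9 fell, with 2.86 FPKM with doxycycline and 4.43 FPKM without. Rises and falls thus occurred within 1 family, each with q = 0.00104 in the authors' deposited table.

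Among transporters of vesicles and lysosomes, SLC17A5, which exports sialic acid from lysosomes, had 52.0 FPKM with doxycycline and 40.0 FPKM without. SLC35A1, which supplies CMP-sialic acid to the Golgi, had 49.0 FPKM with doxycycline and 37.7 FPKM without. SLC17A9, the vesicular nucleotide transporter, fell 1.69-fold, with 7.02 FPKM with doxycycline and 11.8 FPKM without, and the vesicular polyamine transporter SLC18B1 fell 1.29-fold. Both genes of sialic acid transport in the table were 1.30-fold higher, a pairing chosen after their values were seen.

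The remaining G398S genes covered bile acids, choline, peptides, lactate, phosphate, vitamins and monoamines. SLC51B had 15.1 FPKM with doxycycline and 6.90 FPKM without. The choline transporter SLC44A1 had 47.4 FPKM with doxycycline and 35.9 FPKM without, and its relative SLC44A5 rose 1.38-fold. The peptide transporter SLC15A1 had 0.876 FPKM with doxycycline and 0.459 FPKM without. SLC5A12, a sodium-coupled lactate transporter, shares with MUC15 a row that had 20.7 FPKM with doxycycline and 12.4 FPKM without. That value cannot be assigned to SLC5A12. The phosphate transporter SLC20A2, the riboflavin transporter SLC52A2 and the monoamine transporter SLC29A4 fell 1.26-fold, 1.29-fold and 1.34-fold.

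In the WT clone 5 SLC genes of 5 families were in the table. SLC25A18, a mitochondrial glutamate carrier, had 1.46 FPKM with doxycycline and 0.559 FPKM without. SLC7A1, the arginine and lysine transporter CAT1, had 2.64 FPKM with doxycycline and 1.52 FPKM without, a 1.74-fold rise. SLC20A1, a phosphate transporter, had 19.4 FPKM with doxycycline and 12.4 FPKM without, a 1.56-fold rise. SLC16A3, which exports lactate from glycolytic cells, had 21.2 FPKM with doxycycline and 32.1 FPKM without, a 1.51-fold fall. In the authors' deposited table q was 0.0335 for SLC25A18, 0.00699 for SLC7A1, 0.0170 for SLC20A1 and 0.0296 for SLC16A3. With 1 FPKM added the log2 fold changes of SLC25A18 and SLC7A1 shrank to 0.66 and 0.53. Centred on the median of all WT rows, the split was 4 higher and 1 lower, since SLC16A3 then stood at 0.06. Relatives of these genes in the G398S table did not all move alike: SLC20A2 fell there, SLC7A2 fell and SLC7A7 rose. Those differences between clones were not tested.

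SLC6A14, which takes up neutral and cationic amino acids in mucosal epithelia, was the 1 SLC gene in both tables, and it fell in both. In the G398S clone it had 0.410 FPKM with doxycycline and 0.686 FPKM without, and in the WT clone 3.13 FPKM with doxycycline and 6.93 FPKM without. The folds were 1.67 and 2.21, with q = 0.00847 in the authors' deposited table for G398S and 0.00699 in that for WT. After addition of 1 FPKM the log2 fold changes were -0.26 for G398S and -0.94 for WT. Whether the folds differ was not tested. The uninduced level was 10.1-fold higher in the WT clone than in the G398S clone, a description only, because each table was normalised on its own. The deposited hg19 locus of the gene is chrX:115567747-115592625. Its promoter, at chrX:116436356-116436655 on the plus strand of GRCh38.p14, is printed because the gene fell in both clones, and it held none of the searched motifs.
SLC6A14: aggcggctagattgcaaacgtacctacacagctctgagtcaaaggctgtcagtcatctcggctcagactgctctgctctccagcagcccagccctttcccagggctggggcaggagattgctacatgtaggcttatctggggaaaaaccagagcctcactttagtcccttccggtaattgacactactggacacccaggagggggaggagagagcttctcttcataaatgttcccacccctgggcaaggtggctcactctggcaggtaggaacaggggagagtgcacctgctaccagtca

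**Figure D4:**
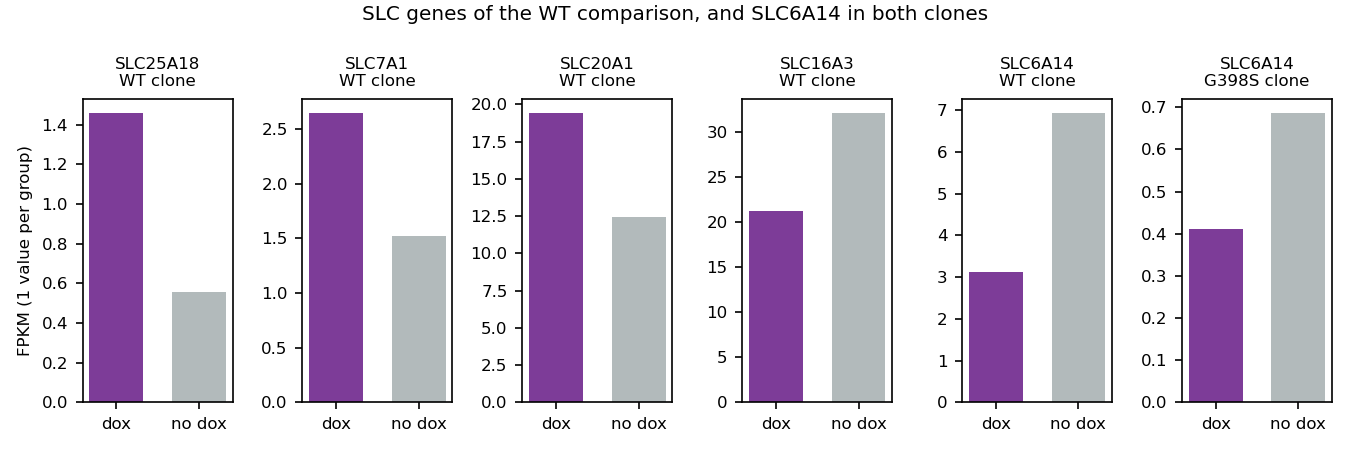
Bars give the authors' group FPKM with doxycycline (left, purple) and without (right, grey) for the 5 SLC genes of the WT comparison and, in the last panel, for SLC6A14 in the G398S clone. Each panel has its own scale, 1 value stands for a group and no error is available. SLC6A14 is lower with doxycycline in both clones, at levels about 10 times apart without it.

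Some features that did not enter the choice of members were compared. The SLC genes that rose in the G398S clone spanned a median of 50.2 kb of genome and those that fell 27.4 kb, and over all rows of the table the medians were 50.0 kb and 25.0 kb. The SLC genes thus followed the table in this respect. Among the 60 genes of the G398S table, of which 34 fell, neighbours within 500 kb formed 2 pairs, and both members of each fell. The share of such pairs over all rows was not computed, so nothing is read from these 2. The deposited loci of SLC22A9 and SLC22A10 lie 57.8 kb apart on chromosome 11, and those of SLC6A19 and SLC12A7 lie 88.1 kb apart on chromosome 5. In GENCODE 16 of the 64 genes overlapped another protein-coding gene. They are SLC1A1, SLC1A5, SLC6A6, SLC7A4, SLC12A9, SLC16A3, SLC20A2, SLC22A10, SLC25A23, SLC26A1, SLC26A2, SLC29A4, SLC31A1, SLC38A9, SLC51B and SLC52A2. Whether strand was used in counting is not given in the sources used here, so reads of overlapping genes may be shared.

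Other transporter genes were counted in fixed lists. Of 32 ABC transporter genes 5, or 15.6%, appeared for the G398S clone, 2 higher and 3 lower, and of 38 P-type ATPase genes 5, or 13.2%, 3 higher and 2 lower. All rows of that table came to 10.9% of the tested genes. The sodium pump subunit ATP1B1, on whose ion gradient the sodium-coupled carriers depend, had 99.4 FPKM with doxycycline and 126 FPKM without. Of 44 carriers with other symbols 4 rose and 1 fell, among them the heme and choline carrier gene FLVCR2, 1.47-fold higher. The organic anion transporter SLCO4C1 rose 1.30-fold in the G398S clone and 1.71-fold in the WT clone. SLCO2B1 fell 1.39-fold in the G398S clone, and no other gene of the 12 in the SLCO list was in either table. None of 11 aquaporins was in either table, and 1 of 20 V-type ATPase subunits, ATP6V1C1, rose 1.24-fold in the G398S clone.

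Of 21 accessory proteins and regulators, 4, or 19.0%, were in the G398S table and 1, or 4.76%, in the WT table. All rows came to 10.9% of the tested genes for G398S and 0.94% for WT. TMEM27, collectrin, which brings SLC6A19 to the surface of kidney cells, had 2.77 FPKM with doxycycline and 4.61 FPKM without in the G398S clone. The kinase SGK1, a stimulator of many carriers, fell in both, 1.39-fold in the G398S clone and 1.43-fold in the WT clone. ARL6IP5, an inhibitor of SLC1A1 in rodents, rose 1.31-fold, and the iron carrier protein gene TF fell 1.28-fold, both in the G398S clone.

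Of 9 hepatocyte markers, 4, or 44.4%, were in the G398S table and none in the WT table. For comparison, all rows came to 10.9% of the tested genes for G398S and 0.94% for WT. The marker lists are short and were chosen with earlier results of these data known. ALB, AFP, TTR, SERPINA1 and HNF4A were not analysed here. RBP4 rose, with 206 FPKM with doxycycline and 140.5 FPKM without, and APOA1 fell, with 130.2 FPKM with doxycycline and 185 FPKM without, as did TF and ASGR1. The markers of other cell types moved as well. In the G398S clone 4 of 9 erythroid markers, or 44.4%, all of them globins, summed to 4535 FPKM with doxycycline and 183 FPKM without. In the WT clone 3 of the 9, or 33.3%, summed to 337 FPKM with doxycycline and 37206 FPKM without. HBG1 and HBG2 fell there while HBA2 rose 8.44-fold. Further, 3 of 5 cholangiocyte markers, or 60%, fell in the G398S clone, with a sum of 133 FPKM with doxycycline and 199 FPKM without. That sum was mostly KRT19, at 129.6 FPKM with doxycycline and 192.9 FPKM without. SPP1 had 2.17 FPKM and 4.70 FPKM, and SOX9 0.78 FPKM and 1.24 FPKM. No proximal tubule or enterocyte marker was in either table. The part of these shifts in the SLC results was not tested.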

How the data were processed

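RNA was measured in 12 libraries of 2 Huh7 clones, made from total RNA with a stranded kit designed to remove ribosomal and globin transcripts. The submitters' processing notes name STAR 2.5.0b, Cufflinks 2.2.1, Cuffdiff and hg19, and give no settings. Per the file headers, the deposited tables hold 1 FPKM for each group, a log2 fold change, a test statistic (a score, not used) and a p-value with its q-value. The table without a mutant prefix was taken as WT from its deposited name. All deposited rows were marked significant by the authors, and p-values have steps of 5e-05. Whether libraries of a group were separate cultures is not stated, so the p-values may measure technical spread.

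Fold changes were recomputed from FPKM with pandas 2.3.3. The numbers tested (17072 and 15109) and called (2114 and 172, of which 1863 and 142 were analysed here) were recovered as the smallest for which the deposited p-values and q-values give whole ranks, a step checked on simulated data. Deposited starts were taken as counted from 0 and raised by 1, since end minus start equalled the annotated RefSeq gene length for 50 genes, against 16 when counted from 1. Members, families and lists were chosen with earlier results of these data known. Named were all WT members, the 15 largest rises and 15 largest falls of G398S with at least 1 FPKM, and up to 4 of the highest FPKM per solute group. The other members were added after their values were seen.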

Additional observations from a re-analysis of the deposited data

How the results depend on the processing

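No paired analysis was possible because the tables hold 1 pooled value per group, and for the same reason no library could be left out. In the G398S clone the SLC count of 60 went to 38 at 5 FPKM or more in the higher group, with 19 lower, and to 6 at a change of 2-fold or more, 2 higher and 4 lower. At a q of 0.01 or with at least 1 FPKM the counts stayed within 1.5 times. In the WT clone 2 of 5 genes, 1 higher and 1 lower, were left at a q of 0.01 and at a change of 2-fold or more, and 3, with 1 higher, at 5 FPKM. Leaving out genes that overlap another, chosen after seeing the data, left 1 lower WT gene, and centring did so too. With 1 FPKM added the median SLC log2 fold change was -0.30 for G398S and 0.53 for WT. Centring on the median of the called rows (-0.32 and -0.66) gave -0.0078 and 1.30, and turned SLC25A6 to 0.021, SLC12A9 to 0.0068 and SLC16A3 to 0.061. The median of all tested genes was not analysed here, so this shift is no measure of a scaling error. With 1 FPKM added 14 G398S and 2 WT genes had a log2 fold change smaller by more than 1.5 times. Every member counted as a transporter gene, and leaving out rows with several symbols kept 58 in the G398S clone.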
